A study of Mus musculus with 38 samples.

Results

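The transcripts of 10 genes were followed in mouse microglia after 1 dose of an antibody against human TREM2: the receptor gene Trem2, its signalling partner Tyrobp, the kinases Syk, Lyn and Btk, the effectors Plcg2 and Vav1, the phosphatase gene Inpp5d and the sheddase genes Adam10 and Adam17. They were found by symbol, each as 1 row of the 53801 rows of the count sheet, and all 10 passed the filter on low counts that left 11189 genes. Trem2 here is the mouse gene, and the human TREM2 transgene carried by these animals has no row of its own. Reads of the transgene may align in part to mouse Trem2, which cannot be checked in the count sheet, so every Trem2 value may hold some of them. One day after the antibody 2 of the 10 genes were called lower, Inpp5d at 0.413 times and Syk at 0.473 times the level after the isotype control, beside 35.8% of all genes called and 15.0% called lower. Both calls were lost when the share of counts on noncoding genes was added to the fit (adjusted p = 0.396 and 0.691). On days 4 and 7 none of the 10 was called against the controls, beside 0.965% to 1.81% of all genes.

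TREM2 is a receptor of the microglial surface that binds lipids, lipoproteins and other ligands but has no signalling tail of its own. It pairs with DAP12, the product of Tyrobp, whose ITAM tyrosines are phosphorylated by SRC family kinases and then dock the kinase SYK. SYK passes the signal to phospholipase C gamma (Plcg2), to PI3 kinase, to the TEC family kinase BTK and to the exchange factor VAV1, while SHIP1, the product of Inpp5d, removes a phosphate from the lipid that PI3 kinase makes, and the proteases ADAM10 and ADAM17 cut the receptor from the cell surface.

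The counts came from 38 RNA libraries of viable CD11b-positive microglia sorted from the brains of C57BL/6J mice of 3 months. Every mouse was hemizygous for a human TREM2 bacterial artificial chromosome transgene and homozygous for a knocked-in human transferrin receptor (huTrem2 BACtg HEMI, hTfR KI HOM), a chimera with a human apical domain, and kept mouse Trem2, so all groups, controls included, share both alleles. The transgene drives human TREM2 from its own regulatory elements, and the neighbouring TREML1 and TREML2 in it were disabled. On day 1 there were 6 mice given vehicle, 8 given ATV:DNP02, the isotype control, at 10 mg/kg and 8 given DNL919 at the same dose, and 8 mice each were taken 4 and 7 days after DNL919. DNL919 carries the transferrin receptor-binding transport vehicle and binds human TREM2. Each of 4 takedown batches held animals of every group, batches 1 and 2 being female and batches 3 and 4 male. No control was taken on days 4 and 7, so those groups were set against the day 1 controls, where the day and the antibody cannot be told apart, and all comparisons that share a group share its libraries. The labels disagree on the tissue, giving cortex with hippocampus in some fields and brain without cerebellum in others.

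Promoter sequences are shown for the receptor gene and for the member with the lowest fold on day 1 against the isotype control, both of which hold GAGGAA, the purine-rich core recognised by PU.1, a transcription factor of microglia and other myeloid cells. The windows are the 250 bases before the RefSeq gene start on GRCm38.p6, 5′ to 3′ on the strand of the gene, with the core in capitals. In Trem2 (chr17:48346151-48346400, plus strand) the core lies on the reverse strand, 40 to 35 bases before the start, and in Inpp5d (chr1:87620062-87620311, plus strand) it lies on the forward strand, 20 to 15 bases before the start.
Trem2: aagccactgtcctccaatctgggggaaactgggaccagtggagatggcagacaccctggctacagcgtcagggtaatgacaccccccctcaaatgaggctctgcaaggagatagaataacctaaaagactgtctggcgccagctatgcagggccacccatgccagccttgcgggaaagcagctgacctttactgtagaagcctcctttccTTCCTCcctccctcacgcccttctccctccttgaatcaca
Inpp5d: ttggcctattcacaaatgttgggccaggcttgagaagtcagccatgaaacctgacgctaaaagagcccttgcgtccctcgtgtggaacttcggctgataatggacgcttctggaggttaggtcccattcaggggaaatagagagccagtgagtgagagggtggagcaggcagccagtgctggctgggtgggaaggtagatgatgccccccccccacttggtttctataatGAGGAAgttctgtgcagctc
The core was found on either strand in 23.3% of all 32851 RefSeq windows of this length, and in 4 of the 9 windows of the 8 members that have one (Trem2, Inpp5d, Vav1 and 1 of the Syk starts). A match of 6 letters is a description of the window, not a binding site.

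The libraries held 1650140 to 6418860 counts. The DNL919 day 1 libraries (2911440 to 6418860 counts) were deeper than most isotype libraries (1650140 to 3480520), and the share of counts on noncoding genes was lower (3.27 ± 0.950% against 6.78 ± 1.33%). All 10 microglial marker genes were detected in every group, and on day 1 after DNL919 5 of them were called lower and 0 higher than after the isotype control, with a summed level of 21668 to 30229 CPM (counts per unit of library size, TMM-scaled) against 22712 to 39250. Of the border-associated macrophage markers 3 of 10 were called lower, and of the monocyte markers 0 of 7 tested. Of all genes 35.8% were called in this comparison and 15.0% were called lower. Neutrophil genes, with a median of 0 CPM elsewhere, held 4.63% of counts in DNL919 day 7 replicate 7 and 0.711% in day 4 replicate 6. The part of depth, noncoding share and marker levels in the results that follow was not tested, apart from the fits with the noncoding share as a term and without the libraries named.

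**Figure D1:**
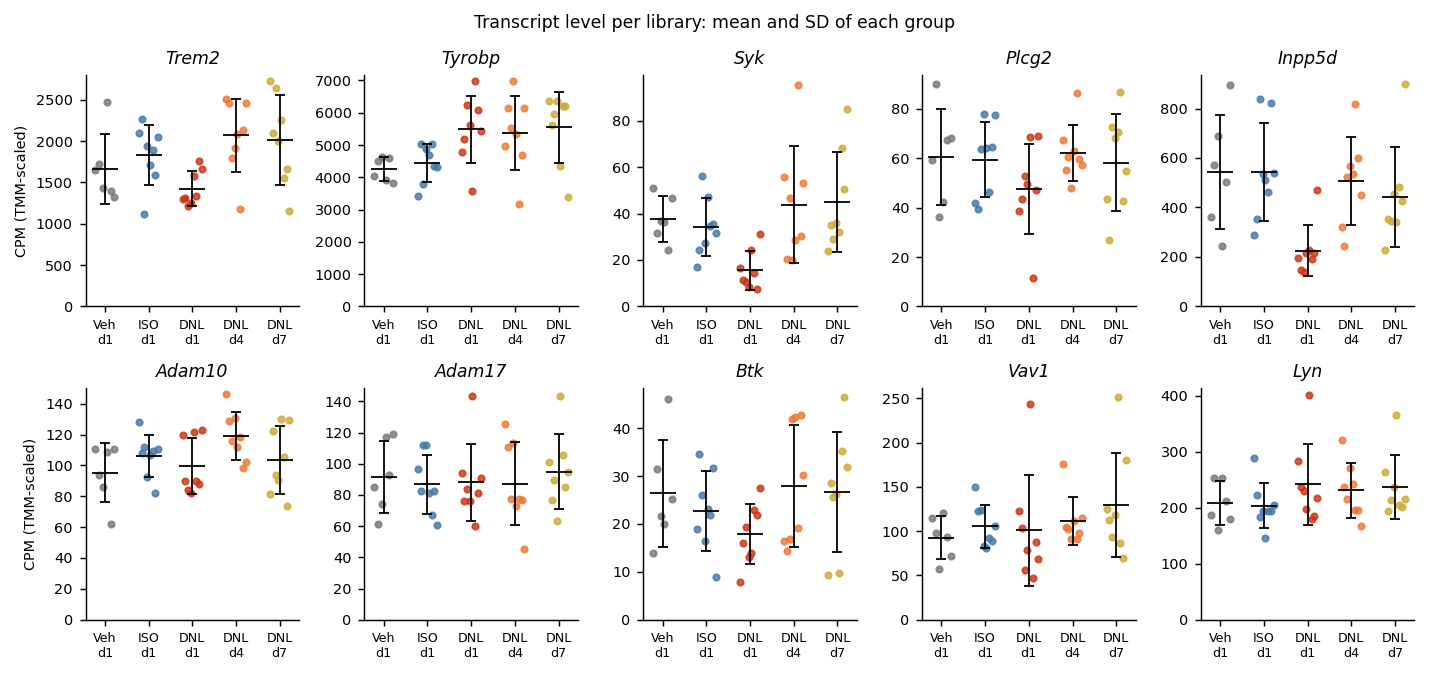
Level of each of the 10 genes in CPM, on a linear axis from 0, in every library of the 5 groups (Veh, vehicle; ISO, ATV:DNP02; DNL, DNL919; d1, d4 and d7, the day), 1 point per library, with the group mean and SD in black. The DNL919 day 1 libraries sit low for Inpp5d (7 of 8 below the lowest isotype library) and for Syk (6 of 8), and the day 1 groups overlap for all 10 genes.

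The receptor gene Trem2 (ENSMUSG00000023992, chromosome 17, 48346401 to 48354147, plus strand, GRCm38) was read in every library. After vehicle it ranged from 1320 to 2470 CPM with a median of 1543, after the isotype control from 1119 to 2267 with a median of 1918, and on day 1 after DNL919 from 1215 to 1756 with a median of 1321. All 8 DNL919 day 1 libraries were below the isotype mean of 1833 ± 360 (SD, n = 8), but none was below the lowest isotype library, so the groups overlap. Against the isotype control the log2 difference was −0.35 ± 0.15 (SE; 95% interval −0.66 to −0.04), which did not pass the threshold in limma-voom with Benjamini-Hochberg adjustment over all 11189 genes (adjusted p = 0.0669), and against vehicle it was −0.24 ± 0.17 (adjusted p = 0.293). The gene was lower within each of the 4 batches against the isotype control, by −0.74 to −0.08, and against vehicle in 3 of 4. The call against the isotype control depended on the fit: Trem2 was called lower in 8 of the 12 alternatives that keep the filter on low counts. It was also called when DNL919 replicate 5, 7 or 8 or isotype replicate 3 was left out. Differences over all 16 single omissions were −0.46 to −0.32. Against vehicle Trem2 was called lower in 2 of the same 12 alternatives and in 0 of 14 single omissions.

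Tyrobp (ENSMUSG00000030579, chromosome 7, 30413760 to 30417585, plus strand), which encodes the adaptor DAP12, tended the other way on day 1, short of the threshold. It ranged from 3832 to 4637 CPM after vehicle (median 4267), from 3405 to 5045 after the isotype control (median 4527) and from 3580 to 6993 on day 1 after DNL919 (median 5523). In the DNL919 group 6 of 8 libraries were above the highest isotype library and 7 of 8 above the highest vehicle library, and the lowest, replicate 5, was inside the isotype range and below the vehicle range. The log2 difference was 0.29 ± 0.13 against the isotype control (adjusted p = 0.0871) and 0.35 ± 0.15 against vehicle (adjusted p = 0.0611). Neither passed the threshold, though of the same 12 alternatives 3 called it higher against the isotype control and 4 against vehicle. Both differences passed without DNL919 replicate 5 (0.36 and 0.44), and that from vehicle also without vehicle replicate 5. The difference from the isotype control was above 0 in all 4 batches, 0.04 to 0.46.

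The differences of the receptor and its adaptor from the controls had opposite signs on day 1, and neither passed the test. As a description of the same counts, chosen after their values were seen, there were 41.7 ± 9.73 Trem2 counts per 100 Tyrobp counts after the isotype control (SD, n = 8), 39.7 ± 12.2 after vehicle (n = 6) and 27.1 ± 8.02 on day 1 after DNL919 (n = 8). The ratio was 39.0 ± 7.13 on day 4 and 36.7 ± 9.27 on day 7. The DNL919 day 1 libraries ran from 19.0 to 44.0, the highest being replicate 5, so the groups overlap here too.

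**Figure D2:**
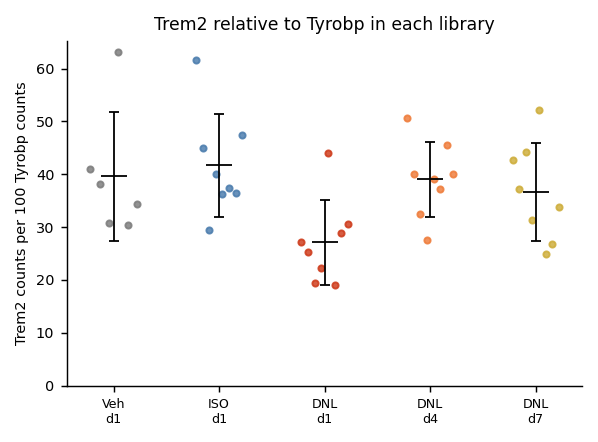
Trem2 counts per 100 Tyrobp counts in each library by group (points) with the group mean and SD. The DNL919 day 1 mean of 27.1 lies below the 41.7 of the isotype group, and replicates 5 and 8 (44.0 and 30.7) lie inside both control ranges.

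Syk (ENSMUSG00000021457, chromosome 13, 52583173 to 52648792, plus strand), the kinase that docks on phosphorylated DAP12, was lower on day 1 after DNL919 than in either control group. It ranged from 24.3 to 51.0 CPM after vehicle (median 36.4), from 17.0 to 55.9 after the isotype control (median 33.0) and from 7.43 to 31.2 on day 1 after DNL919 (median 12.9). Of the 8 DNL919 libraries 6 were below the lowest library of the isotype control, and the same number below the lowest vehicle library. Syk fell, with a log2 difference of −1.08 ± 0.31 from the isotype control (95% interval −1.71 to −0.45, adjusted p = 0.00564) and of −1.25 ± 0.34 from vehicle (adjusted p = 0.00316). These are low counts, 22 to 210 per library. The within-batch differences from the isotype control were all below 0, −1.98 to −0.54, and the call held in all 16 fits without 1 library (−1.23 to −0.91).

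Inpp5d (ENSMUSG00000026288, chromosome 1, 87620312 to 87720507, plus strand), which encodes the inhibitory lipid phosphatase SHIP1, showed the lowest fold of the 10 genes against the isotype control (0.413; against vehicle Syk was lower, 0.420 beside 0.433). It ranged from 244 to 894 CPM after vehicle (median 537), from 288 to 839 after the isotype control (median 524) and from 140 to 471 on day 1 after DNL919 (median 205). Of the 8 DNL919 libraries 7 lay below the lowest library of each control group, and replicate 8, at 471 CPM, lay inside both control ranges. Inpp5d fell, with a log2 difference of −1.28 ± 0.20 from the isotype control (95% interval −1.68 to −0.87, adjusted p = 1.80e-06) and of −1.21 ± 0.22 from vehicle (adjusted p = 2.49e-05). The within-batch differences from the isotype control were −1.93 to −0.91, and all 16 fits without 1 library kept the call (−1.41 to −1.19).

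The calls of Inpp5d and Syk moved with the noncoding share of the libraries. With that share added to the fit, Inpp5d differed from the isotype control by −0.27 (adjusted p = 0.396) and Syk by −0.29 (adjusted p = 0.691), while Trem2 differed by −1.08 and was called (adjusted p = 2.67e-06). The slope on the share itself was looked at after the data were seen. Within groups and batches a library with 1 percentage point more noncoding counts had a higher level of Inpp5d and Syk, with log2 slopes of 0.28 ± 0.04 (SE, adjusted p = 3.57e-06) and 0.22 ± 0.08 (adjusted p = 0.0416), and a lower level of Trem2 and Lyn, with slopes of −0.21 ± 0.03 (adjusted p = 2.36e-05) and −0.12 ± 0.04 (adjusted p = 0.0466). This slope was called for 4 of the 10 members and for 18.8% of all genes tested. Since the share also differed between the DNL919 day 1 group and both controls, the group and the share cannot be told apart by these fits. From day 1 to day 4 Syk, Inpp5d and Trem2 stayed called with the same term (0.99, 0.66 and 0.88).

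**Figure D3:**
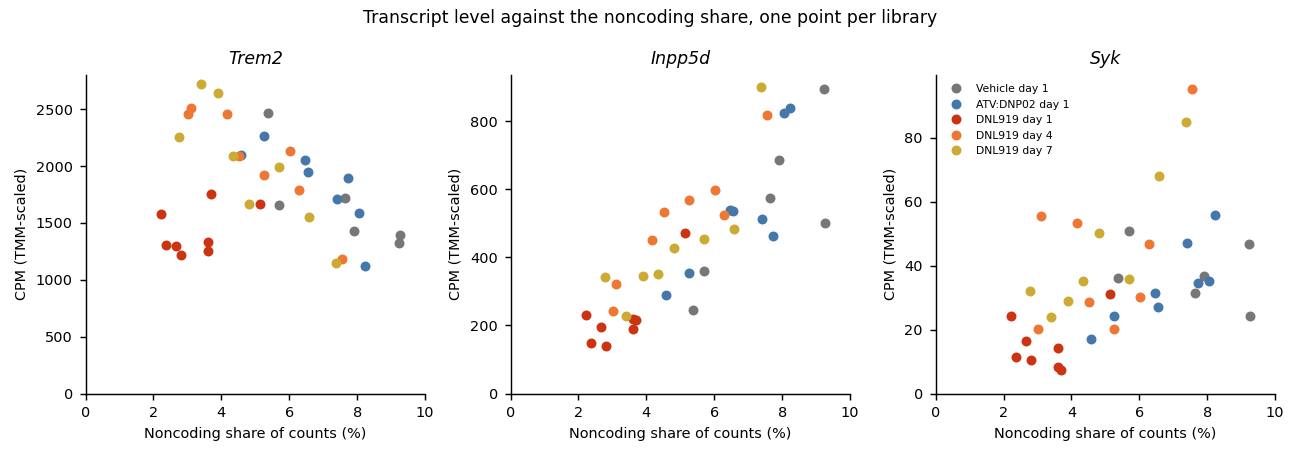
Level of Trem2, Inpp5d and Syk (CPM, linear axis) against the percent of counts on noncoding genes, 1 point per library coloured by group. The DNL919 day 1 libraries lie at the low end of the noncoding share (mean 3.27%, against 6.78% after the isotype control), where Inpp5d and Syk are low. For Trem2 most of them lie below the day 4 and day 7 libraries of like share, with replicate 8 (1668 CPM at 5.13%) beside a day 7 library (1666 CPM at 4.81%).

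Plcg2 (ENSMUSG00000034330, chromosome 8, 117498291 to 117635142, plus strand), the phospholipase downstream of SYK, ranged from 11.3 to 68.9 CPM on day 1 after DNL919 and differed from the isotype control by −0.37 ± 0.24 (adjusted p = 0.248). Btk (ENSMUSG00000031264, chromosome X, 134542336 to 134583570, minus strand), the TEC family kinase, was at 22.7 ± 8.27 CPM after the isotype control and 17.9 ± 6.31 on day 1 after DNL919 (SD, n = 8 each), a log2 difference of −0.40 ± 0.32 (adjusted p = 0.360). Neither gene passed the test, and both intervals include 0.

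Vav1 (ENSMUSG00000034116, chromosome 17, 57279100 to 57328031, plus strand), the exchange factor for RAC, ranged on day 1 after DNL919 from 46.6 to 243 CPM with a median of 83.5. Its highest library was replicate 5, which had 6239060 counts, and the next library stood at 122 CPM. The log2 difference from the isotype control was −0.16 (adjusted p = 0.624). Without the deepest DNL919 day 1 libraries, replicates 1 and 5, it was −0.54 (adjusted p = 0.0494). Lyn (ENSMUSG00000042228, chromosome 4, 3678115 to 3813122, plus strand), a SRC family kinase that can phosphorylate ITAM tyrosines, ranged from 180 to 401 CPM on day 1 after DNL919, with the same replicate 5 highest, and differed by 0.25 ± 0.15 (adjusted p = 0.219).

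The sheddase genes stood close to the controls. Adam10 (ENSMUSG00000054693, chromosome 9, 70678997 to 70780229, plus strand) was at 106 ± 13.7 CPM after the isotype control and 99.9 ± 18.1 on day 1 after DNL919 (SD, n = 8 each), a log2 difference of −0.10 (adjusted p = 0.643). Adam17 (ENSMUSG00000052593, chromosome 12, 21323509 to 21373632, minus strand) was at 86.9 ± 18.8 and 88.2 ± 24.6 CPM, a log2 difference of 0.03 (adjusted p = 0.918). Adam17 is uncertain, since it overlaps Iah1 on the opposite strand, and the genes that overlap it held 34.4% of their joint counts.

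**Figure D4:**
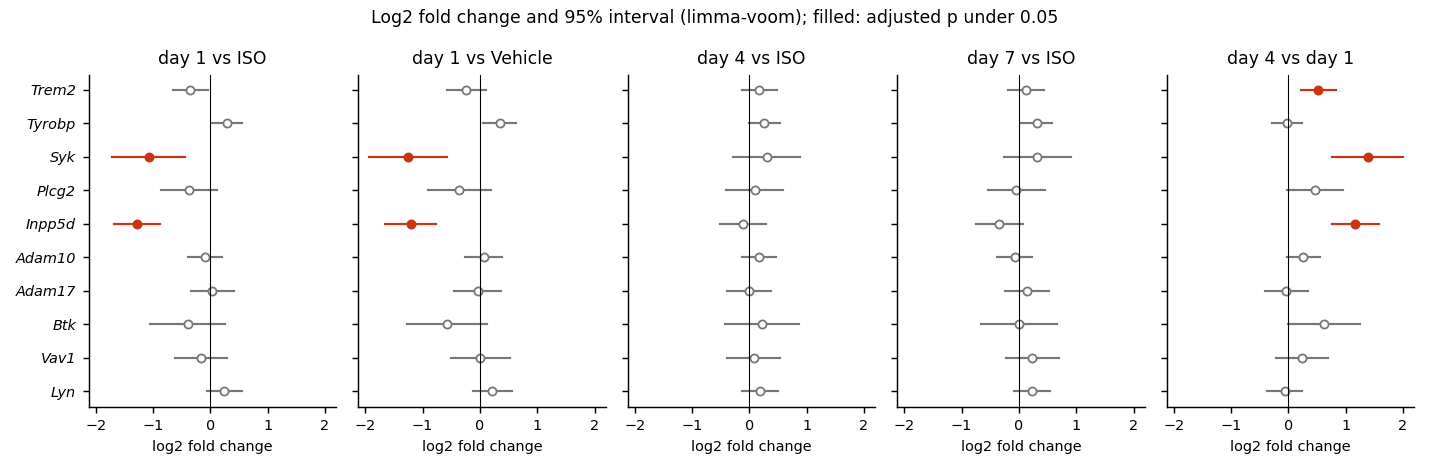
Log2 fold change of the 10 genes with its 95% interval, for DNL919 on day 1 against ISO (ATV:DNP02) and against vehicle, on days 4 and 7 against ISO, and on day 4 against day 1. Filled points pass an adjusted p of 0.05 in limma-voom: Inpp5d and Syk below 0 on day 1, and Inpp5d, Syk and Trem2 above 0 from day 1 to day 4.

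Counted together, 2 of the 10 genes were called on day 1 against the isotype control, where 35.8% of all genes were called and 15.0% were called lower. The same count against vehicle was 2 of 10, with 33.4% of all genes called and 14.4% called lower. Both comparisons use the same DNL919 libraries. Without 1 library the count against the isotype control was 2 to 4, the highest without DNL919 replicate 5. At an unadjusted p under 0.05 there were 4 members against the isotype control, beside 4905 of the 11189 genes. Against vehicle there were 3 members, beside 4702 genes. The median log2 difference of the 10 genes was −0.26 against the isotype control and −0.14 against vehicle, and that of all genes tested was 0.01 and 0.03. The controls themselves could not be separated: for ATV:DNP02 against vehicle limma-voom called 0 members and 0% of genes. At an unadjusted p under 0.05 there were 498 genes. With adjustment edgeR called 0 genes and DESeq2 called 1. The member differences were −0.18 to 0.17.

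From day 1 to day 4 after DNL919, 3 of the 10 genes were called, all higher, where 31.9% of all genes were called and 13.8% were called higher. This comparison shares its day 1 libraries with those above and is no independent evidence of the day 1 values. Syk rose by 1.38 ± 0.31 on the log2 scale (2.61-fold, adjusted p = 0.000428), Inpp5d by 1.17 ± 0.20 (2.24-fold, adjusted p = 1.24e-05) and Trem2 by 0.52 ± 0.15 (1.44-fold, adjusted p = 0.00672). On day 4 Syk ranged from 20.1 to 95.4 CPM (median 38.6), Inpp5d from 243 to 818 (median 529) and Trem2 from 1182 to 2514 (median 2112). For Trem2, 7 of the 8 day 4 libraries were above the highest day 1 library and 1 was below the lowest. The 3 genes were higher in all 4 batches, Syk by 1.25 to 1.64, Inpp5d by 0.70 to 1.66 and Trem2 by 0.12 to 0.93, and kept their calls in all 16 fits without 1 library. The highest Syk value, 95.4 CPM, came from the day 4 library with neutrophil genes, and without it and the day 7 library that also held them the same number of members, 3, was called. Tyrobp was at 5372 ± 1148 CPM on day 4 against 5487 ± 1029 on day 1, a log2 difference of −0.03 (adjusted p = 0.900).

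By days 4 and 7 none of the 10 genes differed from the day 1 controls beyond the threshold. Against the isotype control 1.81% of all genes were called on day 4 and 1.51% on day 7, and against vehicle 1.08% and 0.965%. The member differences from the isotype control ran from −0.11 to 0.30 on day 4 and from −0.34 to 0.32 on day 7. At an unadjusted p under 0.05 there were 0 members on day 4, beside 1378 of the 11189 genes. On day 7 there was 1 member, beside 1313 genes. Inpp5d was at 507 ± 176 CPM on day 4 and 441 ± 201 on day 7, against 544 ± 198 after the isotype control, with log2 differences of −0.11 (adjusted p = 0.892) and −0.34 (adjusted p = 0.542). Syk was at 43.8 ± 25.2 and 44.9 ± 21.4 CPM, against 34.1 ± 12.5. Trem2 was at 2068 ± 446 and 2010 ± 542 CPM, against 1833 ± 360. Tyrobp was still above the isotype mean, by 0.26 and 0.31 on the log2 scale, without passing the test (adjusted p = 0.432 and 0.328). Between days 4 and 7 limma-voom called no member and 0% of genes, with 483 genes at an unadjusted p under 0.05. With adjustment edgeR called 0 genes and DESeq2 called 1. The member differences were −0.23 to 0.16.

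The response of the 10 genes was also set side by side in the sexes, each held by its own batches. The day 1 difference of Inpp5d from the isotype control was −1.14 in males and −1.42 in females, that of Syk −1.04 and −1.13, and that of Trem2 −0.20 and −0.51. Fitted on males alone, with fewer libraries, Syk was not called against the isotype control (−1.06, adjusted p = 0.162) and Inpp5d not against vehicle (−0.97, adjusted p = 0.0866), nor Trem2 from day 1 to day 4 (0.25, adjusted p = 0.589), while all 3 passed in females alone (−1.16, −1.50 and 0.77). The interaction term was called for 0 members and 0 of 11189 genes by limma-voom, and for 0 genes by edgeR, each after adjustment. At an unadjusted p under 0.05 limma-voom gave 609 genes. The largest value of the term among the members was 0.85 for Btk, male minus female (adjusted p = 0.884).

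Around the 10 genes, 117 other tested genes of the receptor and its pathway were followed in 10 lists. On day 1, 18 of the 117 were called higher and 33 lower than after the isotype control, 43.6% in all beside 35.8% of all genes. Against vehicle 17 were called higher and 27 lower (37.6%, beside 33.4% of all genes), and from day 1 to day 4 31 were called higher and 15 lower (39.3%, beside 31.9%). In males alone the day 1 count was 9, beside 956 of all genes, and with the noncoding share in the fit it was 24, beside 2136. Against the isotype control 1 gene of the lists was called on day 4 and 2 on day 7, all higher.

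**Figure D5:**
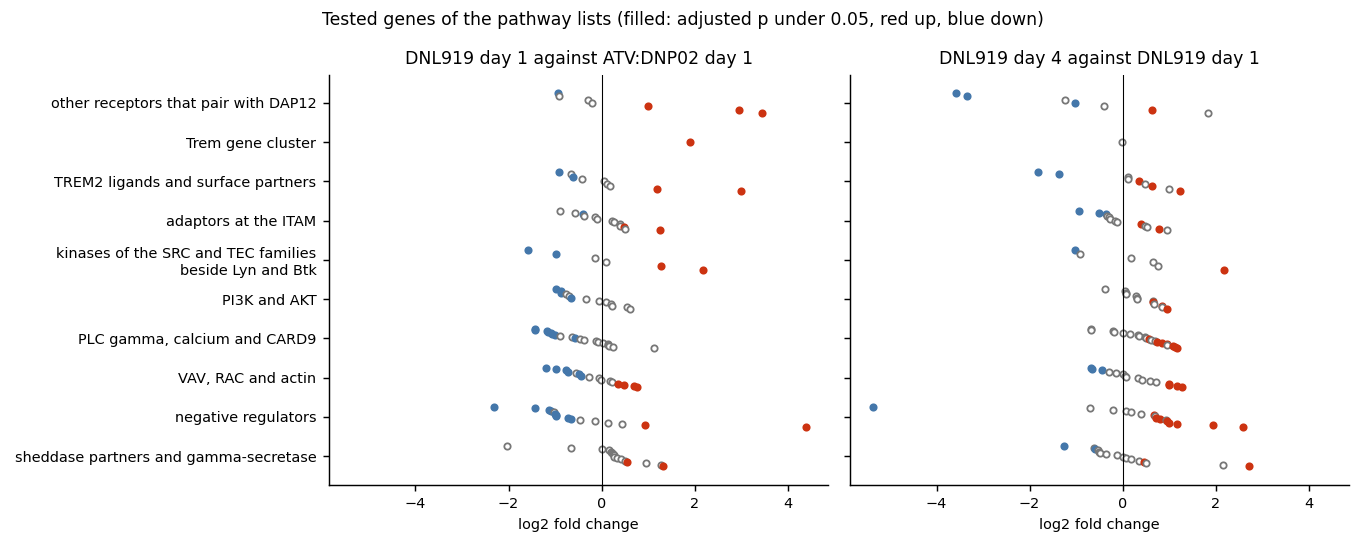
Log2 fold change of each tested gene (1 point) of the 10 pathway lists, on day 1 after DNL919 against the isotype control and on day 4 against day 1. Filled points were called, red for higher and blue for lower, and open points were not. The negative regulators (9 of 16 lower) and the PLC gamma, calcium and CARD9 list (8 of 20 lower) hold the most genes called lower on day 1. Of all genes 15.0% were called lower there.

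Among the receptors and their ligands calls went both ways, in a comparison where 35.8% of all genes were called. Of 7 other receptors that pair with DAP12, 3 were called higher and 1 lower on day 1. Siglech, a lectin receptor of microglia, fell by 0.94 on the log2 scale, from 2085 ± 203 CPM after the isotype control to 1112 ± 271 (SD, n = 8 each, adjusted p = 2.25e-08). Clec5a, a lectin receptor of myeloid cells, rose by 0.99, from 150 ± 28.7 to 298 ± 48.6 CPM (adjusted p = 6.02e-06). To complete the count, the other genes called higher were Pilrb1 and Pilrb2, closely related copies whose reads the counting could split, so their values are uncertain. In the Trem gene cluster 1 other gene, Treml2, could be tested, and it was called higher at 4.88 CPM against 1.84 (adjusted p = 0.0478). Against vehicle, at 3.62 CPM, it did not pass (0.44, adjusted p = 0.702). Of 9 ligands and partners 2 were called higher and 2 lower. Ms4a6d, a membrane protein of myeloid cells, rose (361 CPM against 160, adjusted p = 3.48e-06), Lgals3, which encodes galectin 3, rose by 3.00 (168 ± 131 CPM against 34.8 ± 33.8, adjusted p = 0.000347), and Apoe, an apolipoprotein that TREM2 binds, fell by 0.91 (1138 ± 1138 CPM against 2158 ± 1897, adjusted p = 0.0170), did not pass against vehicle (−0.68, adjusted p = 0.120) and on day 7 was higher than after the isotype control by 1.13 (adjusted p = 0.0374).

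In the kinases and adaptors close to DAP12 the calls also went both ways, again beside 35.8% of all genes called. Among the other SRC and TEC family kinases, Tec fell by 0.98, to 18.7 CPM, and Fgr was called higher at 13.6 CPM against 3.16. Tec did not pass against vehicle (−0.77, adjusted p = 0.0587). Of 13 ITAM adaptors 2 were called higher and 1 lower. Lat2, an adaptor of haematopoietic cells, rose by 1.25 (349 ± 59.8 CPM against 146 ± 33.6, adjusted p = 6.72e-08), Lcp2, which encodes the adaptor SLP-76, rose by 0.47, and Fyb, a further adaptor, fell by 0.41.

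Downstream of SYK the called genes were lower, apart from the actin list. On day 1 against the isotype control 35.8% of all genes were called and 15.0% were called lower. Of 13 PI3 kinase and AKT genes 0 were called higher and 4 lower, among them Pik3cg, the gamma catalytic subunit, which fell by 0.98, from 62.8 to 33.2 CPM (adjusted p = 0.000508), Pik3cd, the delta catalytic subunit, which fell by 0.88, and Pik3r5, a regulatory subunit, which fell by 0.88. Pik3r5 did not pass against vehicle (−0.77, adjusted p = 0.0868). Of 20 genes of the PLC gamma, calcium and CARD9 list 0 were called higher and 8 lower, with a list median of −0.52. Bcl10, which links CARD proteins to NF-kappaB, fell by 1.08 (115 ± 27.5 CPM against 242 ± 54.6, adjusted p = 1.09e-07), and Rasgrp3, a RAS exchange factor, fell by 1.15 (adjusted p = 1.56e-06), and Ppp3ca, a catalytic subunit of calcineurin, fell by 1.17. Of 16 genes around VAV, RAC and actin 4 were called higher and 6 lower. Arhgdib, which holds small GTPases inactive, was higher by 0.77, and Wipf1, a partner of WASP, was lower at 27.7 CPM against 66.0, as was Ptk2b, a calcium-responsive kinase, at 23.1 against 46.0.

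The negative regulators other than Inpp5d moved mostly in the same direction as Inpp5d. Of 16 tested, 2 were called higher and 9 lower, beside 35.8% of all genes called and 15.0% called lower. Their median log2 difference was −0.85, where the median of all genes was 0.01. Inpp5d itself lost its call with the noncoding share in the fit (adjusted p = 0.396). Cd33, a sialic acid-binding receptor, fell by 0.99 (171 ± 63.0 CPM against 326 ± 40.5, adjusted p = 9.72e-08). Ubash3b, a phosphatase that acts on SYK, fell by 1.13, from 101 to 46.5 CPM. Dok2, an adaptor that recruits RAS inhibitors, was called higher at 11.6 CPM against 0.793, a control level so low that its fitted fold depends on the offset added to the counts. From day 1 to day 4, 8 of the 16 were called higher and 1 lower, beside 31.9% of all genes called and 13.8% called higher. The 16 sheddase and gamma-secretase genes other than Adam10 and Adam17 held 2 calls on day 1, both higher, beside 35.8% of all genes called. Rhbdf2, a partner of ADAM17, was at 11.8 CPM against 5.91, and Psenen, a gamma-secretase subunit, was at 55.4 against 42.2. Psenen did not pass against vehicle (0.55, adjusted p = 0.0782). Timp2, a metalloprotease inhibitor, was the 1 gene of the lists called on day 4 against the isotype control (0.74), and it was called on day 7 too (0.94); it is named here after its values were seen.

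The genes whose levels were most like that of Trem2 over the 38 libraries, after batch was removed, were Camk1 (Pearson r = 0.92), Pld4 (0.88), Serpine2 (0.88), Serinc3 (0.88) and Cd300d (0.88), where the median of the other 11188 genes was 0.00. With the group means removed as well the nearest were Ctsa (0.93), hexb (0.91), Itm2b (0.91), Camk1 (0.89) and Serinc3 (0.88), so that 2 of 5 were the same. Among the members r was 0.32 for Tyrobp, 0.06 for Syk and −0.03 for Inpp5d, and with the group means removed 0.43, −0.50 and −0.68. These are descriptions over libraries that share batches and differ in depth and noncoding share.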

How the data were processed

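RNA of sorted microglia was made into libraries with a SMART-Seq v4 kit that primes at the 3′ end and Nextera XT. Per the submitters' processing notes the authors aligned reads with STAR to GRCm38.p6, counted them with featureCounts of Subread 1.6.2 and used edgeR; the annotation release is not given in the sources used here. The deposited counts are raw counts per gene, rounded by the authors to at most 2 significant digits (error up to 4.76% of a value). The authors' library sizes and scaling factors, the latter a deposited ratio, entered 1 alternative, and the deposited normalized values were not used.

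Genes were filtered with edgeR's filterByExpr (minimum count 10, total 15, proportion 0.7) and fitted with limma-voom 3.58.1 on TMM-scaled counts (edgeR 4.0.16, R 4.3.3) over all 38 libraries, with group and batch as terms, two-sided tests, Benjamini-Hochberg adjustment over 11189 genes and calls at an adjusted p under 0.05. CPM in the text uses the same scaling. Libraries held 1650140 to 6418860 counts; genes with few counts, such as Syk and Btk, are measured least precisely. Differences within batches, single omissions, edgeR, DESeq2 1.42.0 and other settings were alternatives. The fits were tested on simulated data. All members were named, and of each list up to 3 genes with the lowest adjusted p among those called on day 1 against the isotype control. The members, lists and rules were chosen with earlier results of these data known. The labels do not say outright that each library is 1 mouse, and the numbers of mice above were counted from the libraries. The paper gives its group sizes for these data in mice, as biological replicates. Where a library is not 1 mouse, p-values measure the spread between libraries. A dose of 1 mg/kg named in the labels was not analysed here. The result for 1 gene of the kinase list is not reported here.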

Additional observations from a re-analysis of the deposited data

Results flagged for a closer look

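Single libraries stood apart from the rest of their group in 9 of the 50 gene and group pairs examined with Dixon's test. Chance would give about 2.5 for independent, normally distributed values, but the pairs share libraries, so the 2 numbers cannot be compared strictly. Trem2 stood at 2470 CPM in vehicle replicate 4, with the next library at 1719. Inpp5d stood at 471 CPM in DNL919 day 1 replicate 8, with the next at 229, and at 899 CPM in DNL919 day 7 replicate 8, with the next at 483. Syk stood at 95.4 CPM in DNL919 day 4 replicate 6, the library with neutrophil genes, with the next at 55.5.

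DNL919 day 1 replicate 5, one of the deepest libraries at 6239060 counts and with 2.22% of counts on noncoding genes, was highest for Adam17 (143 CPM), Vav1 (243 CPM) and Lyn (401 CPM). Vav1 also stood apart in DNL919 day 4 replicate 1 (175 CPM) and Lyn in DNL919 day 7 replicate 5 (365 CPM).

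The DNL919 groups of days 1 and 4 differed in their distance from the same isotype libraries by 0.52 for Trem2, 1.38 for Syk and 1.17 for Inpp5d on the log2 scale, tested as day 4 against day 1.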

How the results depend on the processing

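No paired analysis was possible because the labels give no replicate numbers. On day 1 against the isotype control 2 members were called. That count was 4 with no filter, 4 with sample quality weights, 4 in females alone, 4 without the 2 deepest DNL919 day 1 libraries, 1 with the noncoding share as a term and 1 in males alone; leaving out 1 library gave 2 to 4. Against vehicle it was 1 with the noncoding share (Trem2, −1.09, adjusted p = 4.09e-05) and 0 in males alone. With that share in the limma-voom fit neither Inpp5d (−0.032, adjusted p = 0.957) nor Syk (−0.28, adjusted p = 0.761) was called against vehicle. From day 1 to day 4 it was 6 with weights and 1 in males alone. On day 4 against the isotype control it was 1 in females alone, beside 152 of all genes. On day 7 it was 1 with no filter, 1 with weights and 1 in females alone, the last beside 140 of all genes. Day 7 against vehicle gave 1 with weights. The all-gene counts with weights, without the deepest libraries and, on day 7, with no filter are not given here. Those member counts are therefore not read as particular to the members. The counts over all genes moved too. On day 1 against the isotype control 4007 genes were called, and 10678 with no filter. That gene count was 3556 in females alone, 2136 with the noncoding share, 956 in males alone and 3638 to 4093 without 1 library. Against vehicle 3740 genes were called, 1604 with the noncoding share and 769 in males alone. The gene count from day 1 to day 4 was 3569, and 647 in males alone. The count of list genes called on day 1, 51, was 24 with the noncoding share and 9 in males alone, and that from day 1 to day 4, 46, was 10 in males alone. The fits in males or females alone have fewer libraries. The 2 fits without the deepest or the neutrophil-high libraries, and the noncoding slope, were chosen after seeing the data.

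Of 2530 values over 90 pairs of gene and comparison, 231 changed sign, none of them among the 7 called pairs. Day 1 against the isotype control: Adam10 0.026 (males); Adam17 −0.011 (DESeq2), −0.076 (library totals), −0.0086 (authors' sizes), −0.045 (only these groups), −0.061 (weights), −0.21 (noncoding share), −0.29 (females), −0.16 (deepest out) and −0.10 to 0.12 without 1 library; Btk 0.044 (noncoding share) and 0.010 (males); Vav1 0.080 (males) and −0.41 to 0.0049 without 1 library; Lyn −0.18 (noncoding share). Day 4 against the isotype control, noncoding share: Trem2 −0.20, Inpp5d 0.39. Day 7: Trem2 −0.28 and Inpp5d 0.22 (noncoding share), Trem2 −0.16 (males). Isotype control against vehicle: Trem2 −0.013 (noncoding share); Tyrobp −0.30 (no filter), −0.026 (females); Syk 0.018 (noncoding share), 0.073 (males), −0.32 to 0.014 without 1 library; Inpp5d −0.035 (weights), −0.036 (females), −0.15 to 0.19 without 1 library. Day 4 against day 1, Tyrobp: 0.035 (library totals), 0.029 (only these groups), 0.035 (noncoding share), 0.11 (females), 0.058 (neutrophil-high out), −0.13 to 0.073 without 1 library. Day 7 against day 4: Trem2 0.027 (no filter), 0.13 (females), −0.16 to 0.061 without 1 library; Tyrobp −0.073 (neutrophil-high out), −0.047 to 0.15 without 1 library; Syk −0.0041 (edgeR), −0.17 (females), −0.12 to 0.18 without 1 library. The cause of these changes was not tested. With no filter 10678 genes were called on day 1, 2817 of them with no count in the 16 libraries.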
